A study of Arabidopsis thaliana with 22 samples.

Results

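Ferritins are protein shells, in plants mainly of the plastid, that take up Fe in a form that does not react with oxygen species. Arabidopsis has 4 ferritin genes, of which FER2 is known from seeds and FER1, FER3 and FER4 from vegetative organs, where their transcripts rise when Fe is in excess. The probe sets of FER1 (At5g01600), FER3 (At3g56090) and FER4 (At2g40300), 3 of the 22746 probe sets tested on the ATH1 array, were followed over all 22 arrays. They were chosen by identifier, and the identifiers were paired with the genes through the study's own tables of Fe-responsive genes, which were drawn from these arrays, so that the direction of their Fe effect is not independent evidence. No probe set was named as FER2, which was not analysed here.

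Hydroponically grown plants of the accession Landsberg erecta were washed briefly in EDTA and moved to medium with Fe (Fe-sufficient) or without Fe (Fe-deficient), and their roots were harvested at 0, 1, 6 and 24 h. The 8 groups of medium and time held 3 arrays each, apart from those of 24 h, which held 2. Each harvest pooled many plants, and according to the methods RNA was taken only from groups of Fe-deficient plants whose Fe3+-chelate reductase activity had risen by 24 h. The transfer was made early in the light period, so that 0 and 24 h share a clock hour while 6 h lies later in the day. The labels call the arrays biological replicates and the methods speak of independent experiments, without saying which array belongs to which, and the p-values reflect no more than the spread among these arrays. In whole roots, fewer cells that express a gene and less RNA per cell cannot be told apart.

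Values are the deposited linear intensities in arbitrary units, which share a common trimmed mean over the arrays. A log2 change is a difference in log2 of the intensity plus 1. The array medians ran from 181.1 to 210.3. Below, a gene is said to be called where limma gave it an unadjusted p under 0.05 together with more than a 1.5-fold change, which is the criterion of the study. The adjusted p given beside it is the Benjamini-Hochberg value over 22746 probe sets. The root hair expansin gene EXPA7, the only member of a list of root markers that could be named, lay between 90.0 and 578 over the arrays. Of 12 shoot and photosynthesis markers 2 could be named. The plastid glyceraldehyde-3-phosphate dehydrogenase gene GAPA lay between 16.5 and 83.7 and the rubisco activase gene RCA between 45.7 and 120.4.

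All 3 ferritin transcripts were lower in Fe-deficient than in Fe-sufficient roots at 6 and 24 h, and none met the criterion at 0 or 1 h. At 6 h the Fe-deficient mean was 33.9% of the Fe-sufficient mean for FER1, 65.5% for FER3 and 61.4% for FER4. At 24 h it was 29.8%, 57.7% and 46.0% in the same order. The media did not overlap at either of these times for any of the 3 genes, while they overlapped at 0 and 1 h for each. With so few arrays per group, media can be apart through spread alone. How many of all probe sets had media apart was not counted. By the adjusted p, no Fe effect on a ferritin gene passed 0.05 at any time.

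FER1 encodes the ferritin best known for its induction by excess Fe in leaves. Its intensity in Fe-sufficient roots was 2201.9, 2293.3 and 2755.3 at 0 h, and in Fe-deficient roots it was 2754.3, 1487.9 and 2426.3. At 1 h it was 2671.8, 2581.3 and 5328.7 with Fe and 3161.0, 2983.0 and 1980.4 without Fe. Fe-sufficient replicate 3 of 1 h stood far above every other FER1 value, and at both times the media overlapped. At 6 h the intensity was 3322.6, 3615.7 and 3903.5 with Fe and 1659.1, 1191.7 and 823.7 without Fe. At 24 h it was 3243.9 and 2614.6 with Fe and 1041.0 and 703.2 without Fe. Every Fe-deficient array of 6 and 24 h was below every Fe-sufficient array of the series.

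FER3 was measured at 1075.8, 1187.1 and 1516.8 with Fe and at 823.1, 991.8 and 1181.1 without Fe at 0 h. At 1 h it was at 1056.1, 932.5 and 1248.2 with Fe and at 1229.7, 1352.9 and 1255.7 without Fe. The Fe-deficient mean of 1 h was 119% of the Fe-sufficient mean, and the groups overlapped. At 6 h the Fe-sufficient arrays had 1301.8, 1227.6 and 1331.2 and the Fe-deficient ones 788.1, 1118.0 and 622.0. At 24 h they had 1298.3 and 1045.3 with Fe and 614.6 and 738.4 without Fe. The Fe-deficient arrays of 6 h were spread widely, with replicate 2 close to the Fe-sufficient range and replicate 3 lowest.

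The signal of the FER4 probe set was lower than that of the other ferritin probe sets, which says nothing of transcript numbers because probe sets differ in their response. With Fe it was 220.3, 274.9 and 307.7 at 0 h, and without Fe it was 175.1, 226.2 and 350.8. At 1 h it was 285.0, 265.5 and 231.7 with Fe and 265.5, 289.4 and 355.1 without Fe. At both times the media overlapped. At 6 h it was 346.2, 316.5 and 365.3 with Fe and 239.3, 200.4 and 191.0 without Fe. At 24 h it was 426.4 and 233.3 with Fe and 145.1 and 158.6 without Fe. The Fe-sufficient arrays of 24 h were far apart, with a coefficient of variation of 41.4%, whereas the Fe-deficient arrays were close together.

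**Figure D1:**
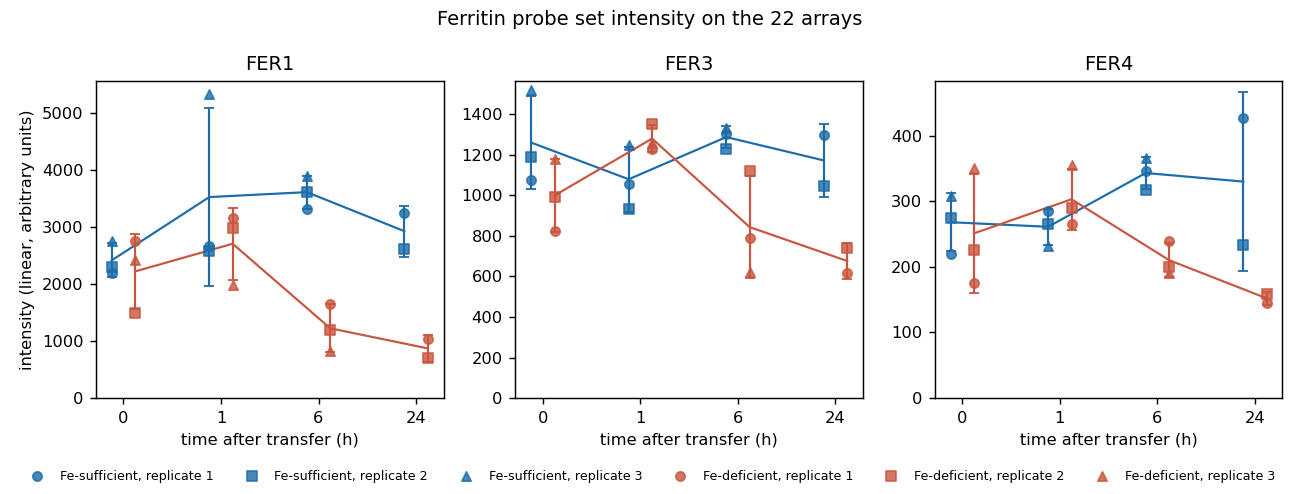
Linear intensity (arbitrary units) of the FER1, FER3 and FER4 probe sets against the time after transfer in hours, with 1 point per array, the symbol giving the replicate number, lines through group means and bars of 1 SD (n = 3 per group, n = 2 at 24 h). The media overlap at 0 and 1 h and are apart at 6 and 24 h in each panel.

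The order of the 8 groups was alike at its ends for the 3 genes. Fe-deficient roots of 24 h were lowest, with 872 ± 239 for FER1, 676 ± 87.5 for FER3 and 152 ± 9.55 for FER4 (SD, n = 2). Fe-deficient roots of 6 h came next, with 1224.8 ± 419 for FER1, 843 ± 252 for FER3 and 210.2 ± 25.6 for FER4 (SD, n = 3). Fe-sufficient roots of 6 h were highest, with 3613.9 ± 290.5, 1286.9 ± 53.4 and 343 ± 24.6 (SD, n = 3). Neighbours in this order overlapped in their arrays throughout, except that for FER4 the Fe-deficient groups of 6 and 24 h were apart.

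The Fe effect, the log2 change from Fe-sufficient to Fe-deficient roots within 1 harvest time, addresses when the storage transcripts depart from their control. At 0 h it was -0.16 for FER1 (95% interval -0.84 to 0.51), -0.34 for FER3 (-0.77 to 0.10) and -0.14 for FER4 (-0.66 to 0.38). Of all probe sets 2.04% were called in either direction at that time, and 0 of the 3 ferritin genes. At 1 h the effect was -0.33 for FER1 (-1.0 to 0.35), 0.25 for FER3 (-0.18 to 0.69) and 0.21 for FER4 (-0.31 to 0.73), with 0 of 3 called against 1.87% of all probe sets in either direction, a share that was 3.53% without Fe-sufficient replicate 1 of 1 h. Without Fe-sufficient replicate 3 of 1 h the effect on FER1 was 0.01. These intervals leave room for changes of 1.5-fold in at least 1 direction for every gene.

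At 6 h the log2 change of FER1 was -1.62 (SE 0.32, adjusted p = 0.491 from limma), which is 3.06-fold lower. The change of FER3 was -0.65 (SE 0.21, adjusted p = 1.00), or 1.57-fold lower. The change of FER4 was -0.71 (SE 0.24, adjusted p = 1.00), or 1.63-fold lower. All 3 genes were called lower at 6 h, when 1.15% of the probe sets were. The median log2 change over all probe sets was -0.02. Among the probe sets that were lower at 6 h, FER1 ranked 3, FER3 32 and FER4 68 by p. The call of FER3 rested on Fe-deficient replicate 3 of 6 h, without which its change was -0.45 and under 1.5-fold.

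At 24 h FER1 changed by -1.77 in log2 (SE 0.39, adjusted p = 1.00 from limma), a level 3.40-fold lower, and it had the smallest p of all lower probe sets. FER3 changed by -0.79 (SE 0.25, adjusted p = 1.00), 1.73-fold lower and at rank 17. FER4 changed by -1.05 (SE 0.30, adjusted p = 1.00), 2.07-fold lower and at rank 9. Again 3 of 3 were called, against 0.703% of all probe sets in the lower direction, or 1.72% without Fe-deficient replicate 1 of 24 h. With 2 arrays per medium, 1 array decided the calls of FER3 and FER4. Without Fe-sufficient replicate 1 of 24 h FER3 had a change of -0.63 and FER4 of -0.62, and without Fe-deficient replicate 1 FER3 had -0.66, and in these cases the unadjusted p was above 0.05. GAPA was also lower in Fe-deficient roots at 24 h, with 21.2 ± 6.72 against 61.9 ± 7.57 (SD, n = 2) and a log2 change of -1.53, while RCA had 72.5 ± 15.3 and 87.8 ± 46.1, and neither was called at 6 h. At 1 h GAPA had been called higher, with 57.1 ± 14.1 without Fe and 35.6 ± 8.91 with Fe (SD, n = 3). The part of shoot or plastid-rich cells in the ferritin values was not tested.

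**Figure D2:**
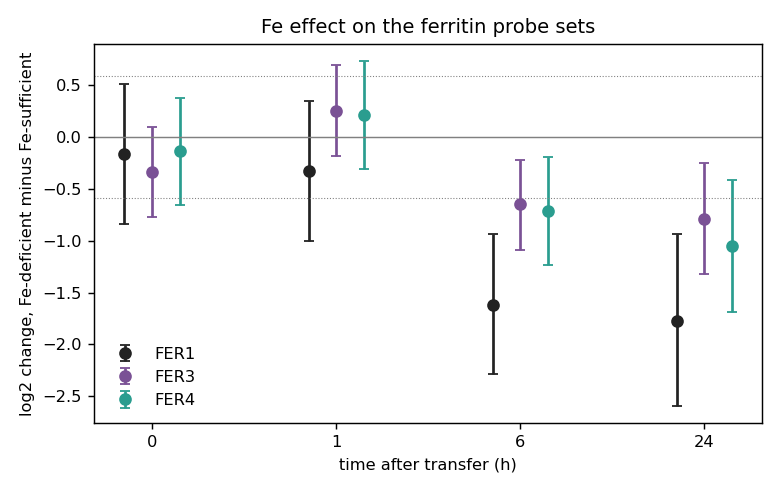
Fe effect (log2 change, Fe-deficient minus Fe-sufficient) on each ferritin gene against the time after transfer in hours. Points are limma estimates, bars are 95% intervals and dotted lines mark 1.5-fold; the intervals include 0 at 0 and 1 h and lie below 0 at 6 and 24 h, where FER1 is at -1.62 and -1.77.

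Each gene was also tested on its own spread alone. The mean Fe effect over 6 and 24 h was -1.69 for FER1, -0.72 for FER3 and -0.88 for FER4, each with p = 0.0167 in a two-sided exact permutation test of the medium labels within time. This is the smallest p that the 120 arrangements allow, and each Fe-deficient array was below each Fe-sufficient array of its hour. With the media swapped only between arrays of the same number at 6 h, a test added after the data had been seen, p was 0.0417 for each gene, again the smallest that its 48 arrangements allow (exact permutation). Between arrays of the same number at 6 h, FER1 differed by -1.0, -1.60 and -2.24 in log2, FER3 by -0.72, -0.13 and -1.10, and FER4 by -0.53, -0.66 and -0.93.

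The time course of each gene was also followed within each medium. In Fe-sufficient roots 0 of 3 ferritin genes were called between any pair of times compared. The largest change there was a log2 difference of 0.58 in FER1 from 0 to 6 h (SE 0.32, 95% interval -0.09 to 1.26). FER3 differed from 0 h by -0.22, 0.05 and -0.10 at 1, 6 and 24 h, and FER4 by -0.03, 0.37 and 0.25. Of all probe sets, the share called in either direction in Fe-sufficient roots was 2.97% from 0 to 1 h, 4.59% from 0 to 6 h and 2.86% from 0 to 24 h. It was 5.50% from 1 to 6 h and 3.45% from 6 to 24 h. Without Fe-sufficient replicate 2 of 24 h 1 of the 3 genes would be called from 0 to 24 h, FER4 at 0.68.

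In Fe-deficient roots the log2 change from 0 to 1 h was 0.30 for FER1, 0.37 for FER3 and 0.32 for FER4, and 0 of 3 were called against 3.44% of all probe sets in either direction. Without Fe-deficient replicate 3 of 0 h FER4 was called, at 0.59. From 1 to 6 h FER1 fell by 1.17 (SE 0.32, adjusted p = 0.366 from limma) and FER3 fell by 0.64 (SE 0.21, adjusted p = 0.532), while FER4 had a log2 change of -0.52 (SE 0.24), which is under 1.5-fold. These are 2 of 3 called lower against 2.13% of all probe sets. The call of FER3 again needed Fe-deficient replicate 3 of 6 h, without which the change was -0.45. FER4 was called without Fe-deficient replicate 1 of 1 h, at -0.61, or without Fe-deficient replicate 1 of 6 h, at -0.62. From 6 to 24 h the changes were -0.46, -0.28 and -0.46 for FER1, FER3 and FER4, and 0 of 3 were called against 2.47% of all probe sets in either direction.

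Against 0 h, only FER1 was called lower at 6 h in Fe-deficient roots, with a log2 change of -0.87 (SE 0.32, adjusted p = 0.642 from limma), where 2.48% of all probe sets were. FER3 had -0.27 and FER4 -0.20. The call of FER1 was lost without Fe-deficient replicate 1 of 0 h or replicate 3 of 6 h, with a change of -0.61 as the smallest over arrays left out. At 24 h FER1 had fallen by 1.33 (SE 0.36, adjusted p = 0.402 from limma) and FER4 by 0.66 (SE 0.27, adjusted p = 0.912), 2 of 3 called lower against 2.80% of all probe sets. FER3 had a change of -0.55 (SE 0.23), short of 1.5-fold. Without Fe-deficient replicate 1 of 0 h FER3 was called, at -0.68, and without Fe-deficient replicate 2 of 24 h its change was also -0.68. The call of FER4 at 24 h was lost without Fe-deficient replicate 3 of 0 h or either Fe-deficient array of 24 h, and the smallest change was then -0.39.

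**Figure D3:**
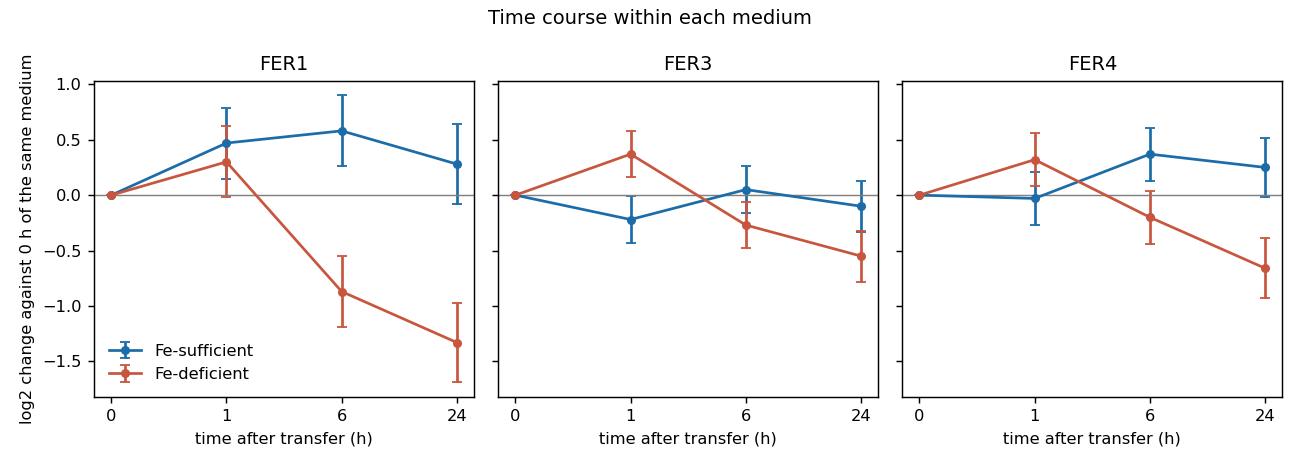
Log2 change of each ferritin gene against 0 h of the same medium, plotted against the time after transfer in hours, with bars of 1 SE from limma. The Fe-deficient line lies below 0 at 6 and 24 h in each panel, reaching -1.33 for FER1. Of the Fe-deficient changes only those of FER1 at 6 and 24 h and FER4 at 24 h met the criterion. No Fe-sufficient change met it.

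Whether the Fe effect itself differed between times was tested by interaction contrasts. Between 1 and 6 h it fell by 1.29 in log2 for FER1 (SE 0.45), by 0.91 for FER3 (SE 0.29) and by 0.92 for FER4 (SE 0.35). All 3 were called, against 1.34% of all probe sets in the lower direction, and all 3 stayed called when each array was left out in turn. Between 6 and 24 h the Fe effect differed by -0.15 for FER1 (95% interval -1.22 to 0.92), -0.14 for FER3 (-0.83 to 0.55) and -0.34 for FER4 (-1.17 to 0.48). None was called, against 1.48% in either direction, and the intervals are wide.

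Relative to 0 h, the Fe effect on FER1 was different by -1.45 at 6 h in log2 (SE 0.45). For FER3 the difference was -0.32 and for FER4 -0.57, so that 1 of 3 was called against 1.53% of all probe sets in the lower direction. Without Fe-deficient replicate 1 of 0 h FER4 was called too, at -0.79. At 24 h against 0 h the difference was -1.60 for FER1 (SE 0.50) and -0.91 for FER4 (SE 0.39), 2 of 3 called against 1.02%, or 1.68% without Fe-deficient replicate 1 of 24 h. FER3 had -0.45 (SE 0.33) and was not called. The call of FER4 was lost without any of 4 arrays, at 0 h Fe-sufficient replicate 1 (-0.78) or Fe-deficient replicate 3 (-0.64) and at 24 h Fe-sufficient replicate 1 (-0.48) or Fe-deficient replicate 1 (-0.85). The adjusted p of every interaction named here was 1.00 (limma).

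The relative abundance of the ferritin transcripts was followed as the log2 ratio of 2 probe sets on the same array, of which only the change is read. The FER1 to FER3 ratio at 6 h was 1.49 ± 0.12 with Fe and 0.52 ± 0.50 without Fe (SD, n = 3). At 24 h its mean was 1.32 with Fe and 0.34 without Fe. The change over 6 and 24 h was -0.97 (p = 0.0167 in a two-sided exact permutation test, 0.0250 when the 3 pairs of genes were adjusted together). The media were also swapped only between arrays of the same number at 6 h. Then p was 0.0417 for this ratio and for that of FER1 to FER4 (exact permutation), the smallest that 48 arrangements allow. After adjustment both were 0.0625, the lowest value possible while the FER3 to FER4 ratio was not at that smallest p. The unequal change of FER1 thus passed after adjustment only without the numbers, and with them the arrangements were too few to decide. The FER1 to FER4 ratio changed by -0.81 (exact permutation p = 0.0167, adjusted 0.0250), from 3.39 to 2.49 at 6 h and from 3.20 to 2.49 at 24 h. The FER3 to FER4 ratio changed by 0.16 (exact permutation p = 0.483), with 0.05 at 6 h and 0.26 at 24 h, and this does not show that the changes of FER3 and FER4 were equal.

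Over all 22 arrays the log2 intensities correlated with r = 0.76 for FER1 and FER3, 0.66 for FER1 and FER4 and 0.80 for FER3 and FER4. These values are descriptions, since the arrays share the groups of medium and time. Within groups, the deviations of single arrays from their group mean were compared (22 arrays, 2-sided exact permutation of replicates within groups, 186624 arrangements, 9 correlations adjusted together). For FER3 and FER4 r was 0.50 (p = 0.0593, adjusted 0.533) and Spearman's rho 0.56 (p = 0.0443, adjusted 0.399). Without the 2 arrays farthest from the median of FER3 r was 0.65. For FER1 and FER3 r was 0.33 (p = 0.311, adjusted 0.694; rho 0.26, p = 0.366) and 0.27 without 2 arrays. For FER1 and FER4 r was 0.00 (p = 0.999, rho -0.03, p = 0.916) and 0.05 without 2 arrays. No pair passed after adjustment, so that replicates in which 1 ferritin gene was high were not shown to be high in another.

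The same deviations were set against IRT1, the gene of the main root Fe2+ transporter, and against the mean of GAPA and RCA. With IRT1, r was -0.32 for FER1 (p = 0.280), 0.18 for FER3 (p = 0.540) and 0.15 for FER4 (p = 0.777) by the same exact permutation test. With the photosynthesis markers it was 0.17, 0.14 and 0.30 (exact permutation p = 0.514, 0.518 and 0.316). After adjustment the smallest of these 6 values was 0.694. Within media, an analysis chosen after the data had been seen, r for FER1 and FER3 was 0.77 over 11 Fe-sufficient arrays (exact permutation p = 0.0116, adjusted 0.0696 over 6 values) and 0.08 over 11 Fe-deficient arrays.

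**Figure D4:**
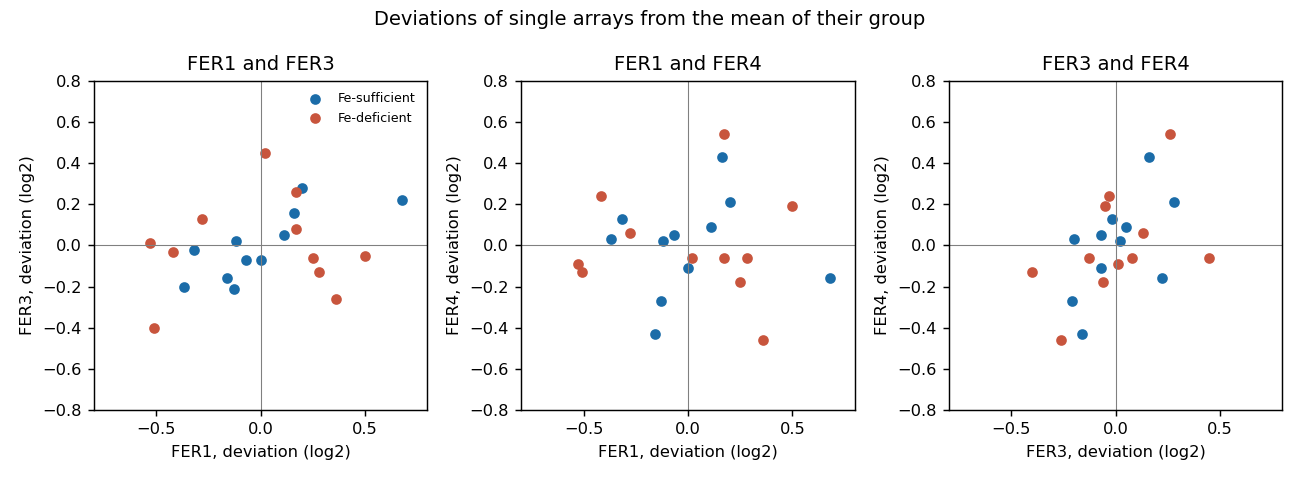
Deviation of each of the 22 arrays from the mean of its group in log2, for the 3 pairs of ferritin genes, with 1 point per array coloured by medium. The cloud of FER3 and FER4 is elongated (r = 0.50), while that of FER1 and FER4 has no slope (r = 0.00).

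Ferritin is one of several sinks and routes for Fe in the cell, the vacuole being the other large store. Of 10 genes listed for vacuolar Fe storage and release 7 could be named, and at 6 h 3 were called higher and 2 lower, with a median log2 change of 0.41. At 24 h 3 were higher and 2 lower, with a median of 0.48. Of all probe sets 0.976% were called higher at 6 h and 0.765% at 24 h, against the 1.15% and 0.703% called lower. Without Fe-sufficient replicate 1 of 6 h the share called higher at 6 h was 1.47%, and without Fe-sufficient replicate 2 of 24 h that at 24 h was 1.19%. No member of the lists described here passed by the adjusted p at 6 or 24 h, the smallest outside the ferritin genes being 0.515 for OPT3 at 6 h (limma). The pair that was lower was the same at both times. VTL1, a vacuolar Fe importer, went from 539 ± 291 with Fe to 146 ± 75.3 without Fe at 6 h (SD, n = 3; log2 change -1.87), and at 24 h the change was -2.44. VTL5, of the same family, changed by -1.35 at 6 h and -1.49 at 24 h. NRAMP4, which exports Fe from the vacuole, was higher by 0.78 and 0.80, and MTP8, a vacuolar metal transporter gene, by 2.17 and 2.78. The remaining calls, named after their values were seen, were VTL4 at 6 h and FPN2, a gene of the ferroportin family, at 24 h (0.90). VTL4 was near the bottom of the scale, with a mean intensity of 15.6 with Fe and 36 without Fe at 6 h (n = 3, log2 change 1.36), and at 24 h its change was -0.60 and not called. VTL1 and VTL5 thus moved in the direction of the ferritin genes, and NRAMP4 and MTP8 in the opposite one.

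Several factors act upstream of ferritin. PYE and ILR3 are basic helix-loop-helix proteins that repress ferritin genes under Fe deficiency, and BTS, BTSL1 and BTSL2 are ubiquitin ligases that act on proteins of the Fe-deficiency response. Of 13 genes listed, 10 were measured by 11 probe sets, of which 4 were higher and 0 lower at 6 h and again 4 and 0 at 24 h, with medians of 0.17 and 0.24, where 0.976% and 0.765% of all probe sets were called higher. PYE had 279.7 ± 27.6 with Fe and 438 ± 108 without Fe at 6 h (SD, n = 3), a log2 change of 0.62, and its change at 24 h was 0.99. BTS was higher by 0.73 at 6 h and 0.93 at 24 h. BTSL2 had 0.36 at 6 h, which was not called, and 0.76 at 24 h, which was. BTSL1 had 2 probe sets, at 1.40 and 1.42 at 6 h and at 1.32 (not called) and 1.33 at 24 h. ILR3 had a change of 0.17 at 6 h and 0.24 at 24 h and was not called. Both probe sets of BTSL1 are among those counted at 6 h. Every called probe set of this list stands in the study's tables of genes raised without Fe, drawn from these arrays, so that the counts are not independent evidence.

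In the list of Fe acquisition 8 of 10 measured genes were called higher and 0 lower at 6 h and again at 24 h, against 0.976% and 0.765% of all probe sets called higher, and the median over the 10 was 2.02 and 2.36 in log2. At 1 h, when no ferritin gene was called, 1 of the 10 was, against 1.17% of all probe sets called higher. It was MYB72, a transcription factor gene of Fe-deficient roots, with a log2 change of 2.76. Its mean intensity with Fe was then 15.1, near the bottom of the scale, against 68.1, 51.8 and 71.8 at 0, 6 and 24 h. Without Fe its mean was 90.2 at 0 h and 82.6 at 1 h. Whether MYB72 responded before the ferritin genes was not tested. The oligopeptide transporter gene OPT3, which serves Fe transport in the phloem, was higher by 2.12 at 6 h and 2.54 at 24 h. The basic helix-loop-helix genes bHLH39 and bHLH101 were higher by 2.33 and 2.38 at 6 h and by 2.44 and 3.02 at 24 h. With Fe, bHLH101 was near the bottom of the scale, at 30.5 ± 29.5 at 6 h (SD, n = 3) and a mean of 23.2 at 24 h. MYB72 had a change of 1.67 at 6 h, which was not called, and 3.14 at 24 h, which was. All 10 measured genes of this list stand in the study's own tables of genes raised without Fe, which were drawn from these arrays. Those tables also supplied names of probe sets, so that the count of 8 of 10 was largely fixed beforehand. It is not evidence about the list as a whole. Many members of the vacuolar and upstream lists stand in the study's tables too, and are not independent evidence of their counts or direction.

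The lists closest to the plastid role of ferritin were thinly covered. Of 14 genes for plastid Fe and Fe-S cluster assembly 2 were named and 0 were called at 6 or 24 h. Of 12 genes for oxidative stress 2 were named and 0 called. At the shares of all probe sets called (0.976% higher and 1.15% lower at 6 h), a count of 0 over 2 genes says nothing of either list. One of them, GLB3, a truncated hemoglobin gene, was named after its values were seen, with log2 changes of -0.38 (SE 0.17) at 6 h and -0.53 (SE 0.21) at 24 h that stayed under 1.5-fold. The clock gene GI had a Fe effect of -0.14 at 6 h and 0.02 at 24 h.

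**Figure D5:**
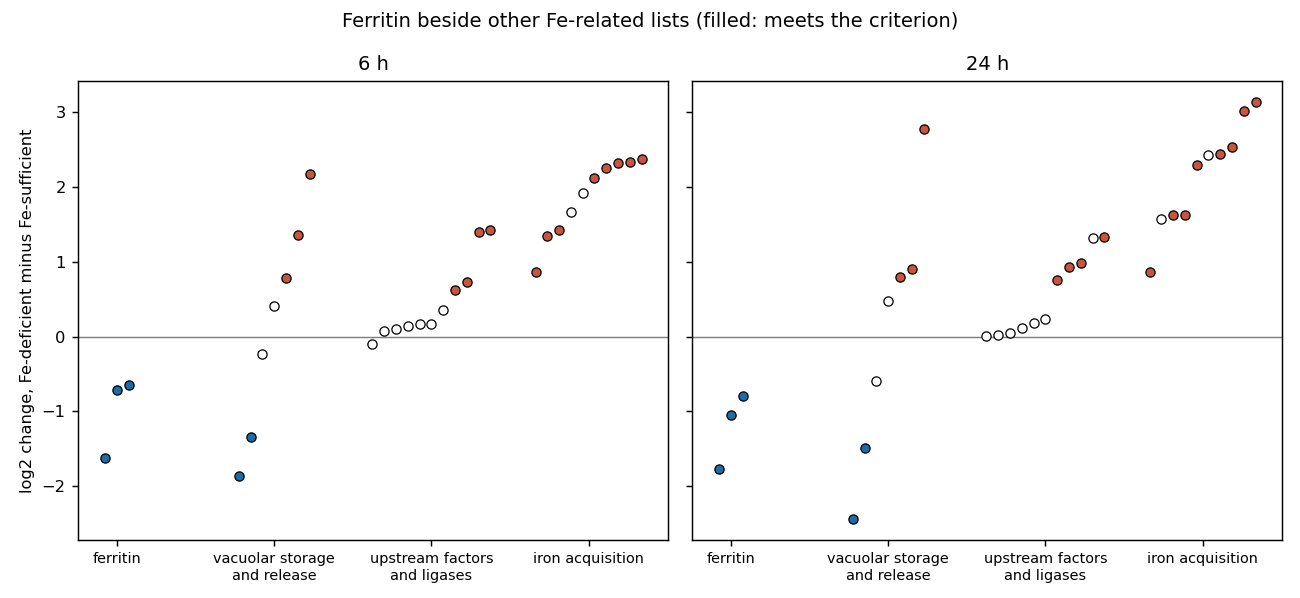
Fe effect (log2 change, Fe-deficient minus Fe-sufficient) at 6 and 24 h for each probe set of 4 lists, with filled points meeting the criterion and open points not. All 3 ferritin genes lie below 0, the vacuolar list is split and 8 of 10 Fe acquisition genes are filled above 0.

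Of 6041 probe sets ranked by the mean correlation of log2 intensity with the 3 ferritin genes over the 22 arrays, the 5 most alike were At1g68650 (mean r 0.74), VTL1 (0.62), At5g49760 (0.62), SAPX (0.61) and At5g49770 (0.55). At5g49760 encodes HPCA1, a receptor kinase for hydrogen peroxide, and SAPX a stromal ascorbate peroxidase, which removes hydrogen peroxide in the plastid. The Fe effect of At1g68650 was -0.43 at 6 h and -0.58 at 24 h in log2, and that of SAPX was -0.25 and -0.59. Apart from VTL1, none of the 5 met the criterion at 6 or 24 h, and each moved less than FER1. The 5 most opposite were At2g42750 (mean r -0.78), ORG1 (-0.75), At3g56360 (-0.74), At1g60610 (-0.72) and OPT3 (-0.71). ORG1, a gene for a protein resembling kinases, had a Fe effect of 1.80 at 6 h and 1.73 at 24 h, and At2g42750 had 1.09 and 0.85. The correlations are descriptions over arrays that share medium and time, and these genes were picked by them. Only probe sets with a named gene were ranked, and some had their name from the study's tables of Fe-responsive genes. At1g68650, VTL1, At2g42750, ORG1, At3g56360 and OPT3 stand in those tables, so that their place in the ranking is not independent evidence.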

How the data were processed

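Root RNA had been hybridised to Affymetrix ATH1 arrays. The deposited values are 1 intensity on a linear scale for each probe set of each array. Their mean after trimming 2% at each end was 500.04 to 500.05 on every array, and 2 values were exactly 0. The methods name a probe-level linear model, which gives log2 values, whereas the deposited values are linear. The program that made them is not given in the sources used here, and the number of arrays limits the precision. Of 22810 probe sets 64 controls were left out. Intensities were raised by 1, put on the log2 scale and fitted with limma 3.58.1 in R 4.3.3, with 8 groups, 14 residual degrees of freedom and no block. Exact permutation tests used Python 3.11.15. The limma fit and the permutation tests were tested on simulated data.

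Names came from the array's annotation (13436 probe sets) or the study's tables (40, the ferritin genes included), and 9270 were not named, so that further list members may lie among them. Of each list the members that met the criterion at 6 or 24 h were named, at most 4 in order of p at 24 h, and as similar genes the 5 highest and 5 lowest by mean r among probe sets with 1 named gene. The members and lists were chosen with earlier results of these data known.

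Replicate numbers stand in the labels of both media. Deviations from group means correlated between arrays of the same number with r = 0.12 to 0.45 at 0, 1 and 6 h. These values were taken as grounds for pairing by number at these times. At 24 h r was -0.41. Between numbers 2 and 3 r reached 0.10 at 6 h, beside 0.12 for the arrays numbered 3, so that the pairing of these arrays is less clear. The tests reported first use no pairing, and paired fits are alternatives. Alternatives were a pseudocount of 16, a mean intensity of at least 32, quantile normalisation, centring on the median, blocks and each array left out.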

Additional observations from a re-analysis of the deposited data

Results flagged for a closer look

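For 6 of the interaction contrasts of the ferritin genes the Fe effect differed between times at an unadjusted p under 0.05. Between 1 and 6 h the difference was -1.29 for FER1, -0.91 for FER3 and -0.92 for FER4 in log2. Between 0 and 6 h it was -1.45 for FER1. Between 0 and 24 h it was -1.60 for FER1 and -0.91 for FER4. The adjusted p from limma was 1.00 for each. Groups of 2 or 3 arrays were not tested for single arrays that lie far from the others.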

How the results depend on the processing

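The Fe effects at 6 and 24 h kept direction and call in 53 of 54 combinations of gene, time and 9 other settings. The exception was FER4 at 24 h on the arrays of that time alone (-1.05, unadjusted p above 0.05). With the numbers as a fixed or random replicate block no call of a ferritin gene changed; at 6 h 594 and 755 probe sets met the criterion with the fixed and the random block against 484 without. With a mean intensity of at least 32, 181, 156, 213 and 135 did at 0, 1, 6 and 24 h (465, 425, 484 and 334 without this minimum), and on the arrays of 24 h alone 734 did. With the random block 714, 680 and 498 did at 0, 1 and 24 h. The share called lower at 24 h was 0.453% with a pseudocount of 16. With the numbers of 24 h crossed, a pairing chosen after seeing the data, 591 probe sets met the criterion at 24 h, against 498 as labelled and 334 without a block. FER4 from 0 to 1 h with Fe turned to 0.00 with quantile normalisation and 0.01 with centring. With centring r was 0.11 for FER1 and FER4 and 0.59 (exact permutation p = 0.0331) for FER3 and FER4, and with quantile normalisation the latter was 0.54 (p = 0.0408). On paired differences (the replicate block) r was 0.33 for FER1 and FER3, -0.33 for FER1 and FER4 and 0.31 (exact permutation p = 0.512) for FER3 and FER4. It was -0.24, 0.57 and -0.10 for FER1, FER3 and FER4 with IRT1 and -0.40, -0.46 and -0.21 for FER1, FER3 and FER4 with the photosynthesis markers. The cause of these changes was not tested.

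With each array left out in turn, the Fe effect ranged from -0.34 to 0.10 for FER1 and -0.41 to 0.09 for FER4 at 0 h, -0.51 to 0.01 for FER1 at 1 h, -0.88 to -0.45 for FER3 at 6 h, and -0.95 to -0.63 for FER3 and -1.48 to -0.62 for FER4 at 24 h. In Fe-sufficient roots it moved FER4 to between -0.16 and 0.08 from 0 to 1 h, FER3 to between -0.06 and 0.19 from 0 to 6 h, FER3 to between -0.25 and 0.06 and FER4 to between -0.18 and 0.68 from 0 to 24 h, FER1 to between -0.07 and 0.46 from 1 to 6 h, and FER3 to between -0.30 and 0.01 and FER4 to between -0.55 and 0.32 from 6 to 24 h. In Fe-deficient roots the ranges were 0.10 to 0.59 for FER4 from 0 to 1 h, -1.13 to -0.61 for FER1 and -0.43 to 0.07 for FER4 from 0 to 6 h, -0.68 to -0.42 for FER3 and -0.89 to -0.39 for FER4 from 0 to 24 h, and -0.87 to -0.45 for FER3 and -0.62 to -0.40 for FER4 from 1 to 6 h. The Fe effect at 24 h minus that at 6 h ranged from -0.43 to 0.13 for FER1, -0.34 to 0.09 for FER3 and -0.78 to 0.09 for FER4. For FER4 the difference from 0 h ranged from -0.79 to -0.29 at 6 h and from -1.34 to -0.48 at 24 h. The number of the 3 genes called ranged from 0 to 1 from 0 to 24 h with Fe and from 0 to 1 and from 0 to 6 h without Fe, and from 1 to 3 from 0 to 24 h and from 1 to 6 h without Fe. FER1 at 6 h (-1.86 to -1.36) and 24 h (-2.05 to -1.48) and FER4 at 6 h (-0.80 to -0.64) kept their calls. Where leaving out an array left 1 in a group, that array is assumed to vary like the other groups.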
